A study of Rattus norvegicus with 35 samples.

Results

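The kidney cortex of male and female rats that ate a potassium-deficient, high-salt diet was compared here across 13824 genes outside the X and Y chromosomes, of 32545 genes in the deposited table. The genes are those with at least 1 FPKM (fragments per kilobase of gene, relative to the library size, as deposited by the authors) in at least 5 of the 35 libraries. Of them, 13770 lie on chromosomes 1 to 20, 34 are mitochondrial and 20 lie on unplaced scaffolds. A further 17227 genes outside X and Y were below that level, and 435 X-linked and 5 Y-linked genes that passed it were left out. The groups were males (6 libraries) and females (6 libraries) on the deficient diet (DK), with the same comparison on normal potassium (NK, 0.36% K, 6 males and 6 females) and on high potassium (HK, 1.41% K, 6 males and 5 females). All 3 diets held 4% NaCl, so every group was salt loaded and no group ate a low-salt diet. The labels give every animal as WT and do not name the strain. Each animal had received a telemeter for blood pressure at 8 weeks of age, recovered for some days and then ate its diet for 5 weeks before the cortex of 1 kidney was frozen.

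The kidney is one of the most sexually dimorphic organs of the rat outside the gonads. Androgens, estrogens and the sex-specific rhythm of growth hormone set the level of many transporters, cytochromes P450 and conjugating enzymes of the proximal tubule, the segment that reclaims most of the filtrate and secretes organic anions and cations. Loss of potassium makes that same segment take up glutamine and produce ammonium, and it changes sodium and potassium channels along the distal nephron.

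The libraries held 14.8 to 28.66 M reads in genes in DK females and 14.2 to 16.04 M in DK males. The Y-linked gene Eif2s3y stood at 38.07 to 46.93 FPKM in DK males and at 0 in every DK female, so the sexes were as labelled. The numbers in the sample descriptions, which also name the columns of the table, fall in the 300s for all 6 DK females and for 1 DK male (replicate 6), and in the 200s for the other 5 DK males. The labels do not say what these numbers mean, and they almost coincide with sex on DK, so values with the number series as a covariate, and from libraries of the 300s alone, stand beside the results. Among females, replicates 1 and 3 had the lowest weights in a fit that weighs libraries (0.378 and 0.178). Among males, replicates 5 and 6 lay nearest to the females in 39.5% and 27.3% of the genes that were over 2-fold higher in males, and female replicate 1 lay nearest to the males in 46.1% of these genes and in 54.4% of those higher in females. Nothing in the labels states that the samples are separate animals beyond their names, so p-values speak only of the spread among these samples.

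On DK, 4758 of the 13824 genes differed between the sexes (34.4%) by limma at a Benjamini-Hochberg adjusted p under 0.05. Of these, 2225 were higher in males (16.1%) and 2533 higher in females (18.3%), and these 2 shares are the background for every gene list described here. The difference was over 2-fold for 304 genes higher in males (2.2%) and 274 higher in females (1.98%). All 6 male libraries lay above all 6 female libraries for 704 genes (5.09%), and the reverse held for 745 genes (5.39%). The number of called genes outside X and Y was 2901 on NK (21%; 9.82% higher in males and 11.2% in females) and 1372 on HK (9.92%; 4% and 5.92%), where the female group had 5 libraries. With the number series as a covariate, 2211 genes were called on DK (1007 higher in males and 1204 in females), and 406 in libraries of the 300s alone, where the single male library is taken to vary like the other groups. The balance of the directions rests on the authors' scaling between libraries. When values were scaled to the sum of reads in a library instead, the median of all genes moved from 0.001 to 0.172 on the log2 scale, and 4421 genes were higher in males and 1216 in females.

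The genes over 2-fold higher in males had a median log2 difference (male minus female, on log2 of FPKM + 0.5 throughout) of 1.27 on DK, 0.49 on NK and 0.49 on HK. Of these 304 genes, 50 were over 2-fold on all 3 diets and 226 were within 2-fold on both other diets. For the 274 genes over 2-fold higher in females the medians were -1.33, -0.55 and -0.49, with 59 over 2-fold on all 3 diets and 185 within 2-fold on both others. These medians describe genes chosen on DK and carry no test. Of the genes called higher in males on DK, 680 were also called on NK, which is 30.6% of the DK genes and 50.1% of the NK genes. The 755 shared genes higher in females were 29.8% of the DK genes and 48.9% of the NK genes. A further 51 genes higher in males and 56 higher in females on DK were called in the opposite direction on NK.

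**Figure D1:**
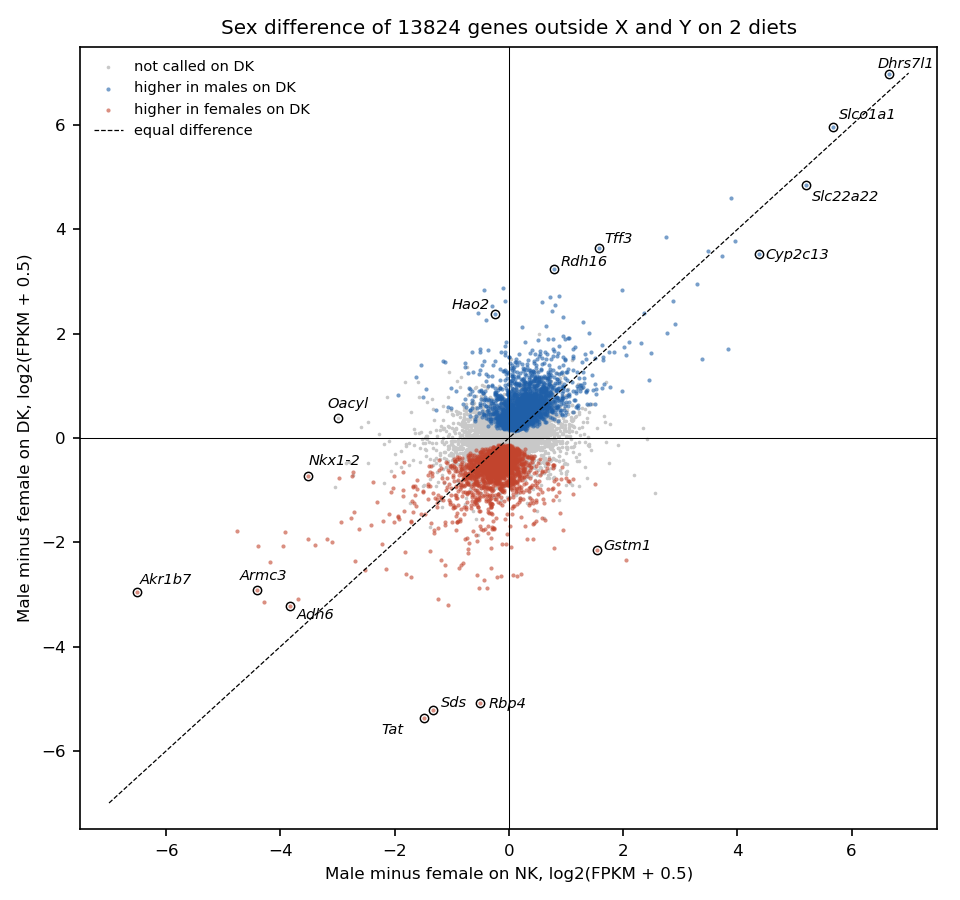
Each point is 1 of the 13824 genes, with the male minus female difference of log2(FPKM + 0.5) on NK on the x axis and on DK on the y axis. Dhrs7l1, Slco1a1 and Slc22a22 lie near the dashed line of equal difference, Tat, Sds and Rbp4 lie far below it, and Akr1b7 and Nkx1-2 lie nearer to 0 on DK than on NK.

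The 12 genes with the largest difference in favour of males included transporters and reductases of the proximal tubule. Dhrs7l1, a member of the short-chain dehydrogenase and reductase family at chr6:95387718-95502845 (positions as in the deposited table, build not given in the sources used here), had lowest, median and highest values of 0.174, 0.326 and 0.656 FPKM in DK females and 61.0, 107 and 206 FPKM in DK males. The sexes did not overlap, and the log2 difference was 6.99 (SE 0.32, adjusted p = 1.86e-17). Slco1a1, an organic anion transporting polypeptide of the brush border at chr4:176158640-176231344, stood at 11.9, 36.8 and 73.2 FPKM in males. In females it had 1 read over the 6 libraries, against 7519 in males, a ratio of 7620 (95% exact interval 1370 to 301000, counting error only). Its log2 difference was 5.96 (SE 0.38, adjusted p = 7.95e-14), a value that depends on the 0.5 added to each FPKM.

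Slc22a22, a prostaglandin transporter of the organic anion family at chr7:97040507-97071968, stood at 0.333, 0.783 and 1.86 FPKM in DK females and 20.1, 39.8 and 54.4 in DK males (lowest, median and highest). The groups were apart, with a log2 difference of 4.85 (SE 0.26, adjusted p = 7.41e-16). Akr1c12l1, an aldo-keto reductase of the family that reduces steroids, averaged 4.81 ± 1.78 FPKM in females and 127 ± 35.7 in males (SD, n = 6), a log2 difference of 4.61. Slc51b, a subunit of the basolateral bile acid and steroid transporter, averaged 5.34 ± 1.15 and 66.2 ± 19.2 FPKM, a difference of 3.48. In all 3 genes, as in Dhrs7l1 and Slco1a1, the lowest of the 6 males was replicate 6, the male library numbered in the 300s, at 86.8 FPKM for Akr1c12l1 and 42.3 FPKM for Slc51b. Each of these 5 genes was also called in the 300s alone, with log2 differences of 6.17 for Dhrs7l1, 4.62 for Slco1a1, 3.93 for Slc22a22, 4.11 for Akr1c12l1 and 2.89 for Slc51b.

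Both Cyp2c11 and Cyp2c13, cytochromes P450 known for their male-specific expression in rat liver and neighbours on chromosome 1 (chr1:257970345-258004434 and chr1:258074860-258139176), were higher in males. Cyp2c11 had 1 read over the 6 DK females and 1238 reads over the males, a ratio of 1250 (95% exact interval 225 to 49600, counting error only). Male values of Cyp2c11 spread widely, with 0.903, 7.46 and 19.1 FPKM as lowest, median and highest, and replicates 5 and 6 were the lowest at 0.903 and 1.99. Cyp2c13 averaged 1.12 ± 0.292 FPKM in females and 20.7 ± 12.1 in males, a log2 difference of 3.54 (SE 0.31, adjusted p = 2.4e-10). These paralogs can share reads, so the split between them is uncertain. The 12 listed liver transcripts summed to 275.7 to 781.8 FPKM in DK females and 136.7 to 600.5 in DK males. Within the list, Tf of transferrin stood at 220.1 to 518.9 FPKM in females and 101.7 to 494 in males. Alb of albumin was at 0.1872 to 0.4737 and 0 to 2.205 FPKM, and Cyp3a2 was at 0 in all 12 libraries.

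The other 5 of the 12 were Cacng5, Tff3, Rdh16, Gc and Anxa13. Cacng5, an auxiliary subunit of calcium channels and glutamate receptors, stood at 0.150, 0.399 and 0.557 FPKM in females and 6.09, 11.3 and 24.7 in males, with no overlap and a log2 difference of 3.86. Tff3, a trefoil peptide secreted by epithelia, averaged 109.9 ± 73.2 FPKM in females and 1221 ± 472 in males, a difference of 3.64. Rdh16, a retinol dehydrogenase, averaged 0.892 ± 0.326 and 14.8 ± 8.32 FPKM, a difference of 3.24. Gc, the vitamin D binding protein, and Anxa13, an epithelial annexin, had differences of 2.95 and 2.83. All 12 genes separated the sexes without overlap, all 12 were called with the series covariate, and 7 of 12 were called in the 300s alone. The 5 that were not are Cacng5 (adjusted p = 0.0659), Tff3 (0.0644), Cyp2c11 (0.126), Gc (0.172) and Anxa13 (0.0622).

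**Figure D2:**
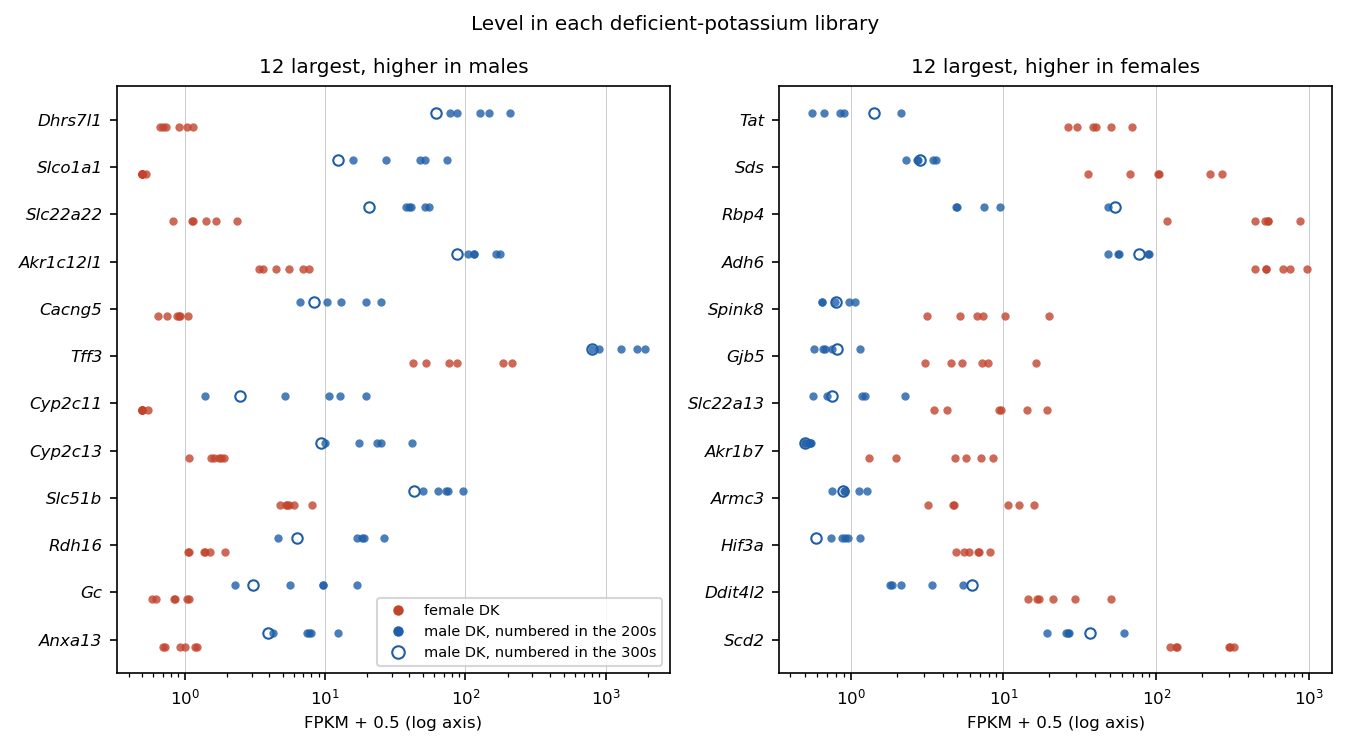
FPKM + 0.5 on a log axis in each of the 12 DK libraries for the 12 genes with the largest difference in each direction; filled points are females and males numbered in the 200s, and the open circle is the male library numbered in the 300s. No gene shows an overlap of the sexes, and the open circle is the lowest male point for Dhrs7l1, Slco1a1, Slc22a22 and Akr1c12l1.

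The sequences before the start sites of leading genes are printed to show the letters in front of genes that lead the list. They come from RefSeq (build GRCr8, matched by symbol), run 5′ to 3′ on the gene's strand and cover the 250 bases before the start. They were chosen after the values were seen. Capitals mark the letters AGAACA or, on the other strand, TGTTCT, the half-site that androgen, glucocorticoid, mineralocorticoid and progesterone receptors share.
Slco1a1 (chr4:176681993-176682242, minus strand): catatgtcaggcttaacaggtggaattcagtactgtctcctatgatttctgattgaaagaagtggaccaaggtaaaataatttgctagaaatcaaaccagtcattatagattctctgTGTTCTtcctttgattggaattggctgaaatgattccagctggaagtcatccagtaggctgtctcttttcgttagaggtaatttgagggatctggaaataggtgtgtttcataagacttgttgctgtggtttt
Slc22a22 (chr7:90639696-90639945, minus strand): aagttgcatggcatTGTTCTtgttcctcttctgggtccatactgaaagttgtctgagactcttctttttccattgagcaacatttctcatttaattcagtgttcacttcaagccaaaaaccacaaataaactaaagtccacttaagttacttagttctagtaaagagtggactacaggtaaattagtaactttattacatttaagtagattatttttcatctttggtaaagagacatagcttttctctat
Dhrs7l1 (chr6:97047900-97048149, minus strand): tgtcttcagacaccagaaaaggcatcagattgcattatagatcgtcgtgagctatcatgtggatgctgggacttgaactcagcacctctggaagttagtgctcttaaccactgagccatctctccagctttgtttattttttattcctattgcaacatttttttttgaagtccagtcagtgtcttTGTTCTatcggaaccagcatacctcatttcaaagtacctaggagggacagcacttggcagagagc
Cyp2c11 (chr1:246174966-246175215, plus strand): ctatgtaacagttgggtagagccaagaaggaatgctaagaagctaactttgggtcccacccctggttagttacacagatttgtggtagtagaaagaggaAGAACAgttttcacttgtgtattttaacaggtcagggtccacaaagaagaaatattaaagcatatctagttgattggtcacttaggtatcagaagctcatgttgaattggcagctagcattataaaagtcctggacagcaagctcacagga
Tat (chr19:54856354-54856603, plus strand): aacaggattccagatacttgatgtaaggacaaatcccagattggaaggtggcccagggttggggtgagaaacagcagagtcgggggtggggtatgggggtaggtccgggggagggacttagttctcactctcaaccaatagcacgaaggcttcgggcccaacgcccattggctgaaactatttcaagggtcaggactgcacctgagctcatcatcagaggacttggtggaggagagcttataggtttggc
Adh6 (chr2:229576386-229576635, plus strand): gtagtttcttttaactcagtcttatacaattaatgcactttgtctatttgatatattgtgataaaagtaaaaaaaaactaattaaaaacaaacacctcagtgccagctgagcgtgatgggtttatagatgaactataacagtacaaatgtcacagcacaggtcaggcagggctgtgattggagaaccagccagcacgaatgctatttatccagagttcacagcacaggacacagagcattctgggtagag

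The first 4, from genes higher in males, hold 1 half-site each, which begins at -133 in Slco1a1, -236 in Slc22a22, -65 in Dhrs7l1 and -151 in Cyp2c11, counted from the start. The windows of Tat and Adh6, which were higher in females, hold none. This contrast rests on which windows are printed. No leader for males without the half-site is among them, nor is Akr1b7, a leader for females that holds it. Among the 12 leading genes higher in males, 10 had a RefSeq window and 5 held a half-site, and among the 12 higher in females it was 1 (Akr1b7) of 7. Over all genes that were more than 2-fold apart, the share was near equal, at 15.74% of 197 windows for males and 17.02% of 188 for females. The half-site stood in 17.52% of all 33469 windows of this length and in 10.96% of the 10214 windows matched to tested genes. The motif TTCNNNGAA, bound by STAT5, reads the same on both strands and was found in 7.67% of all windows, in 8.63% of those of genes over 2-fold higher in males and in 6.91% of those higher in females. It is in none of the 6 windows printed and overlaps no half-site there. A match of letters is no sign of binding, and its absence speaks only for this window.

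The 12 genes with the largest difference in favour of females were led by enzymes of amino acid breakdown. Tat, the tyrosine aminotransferase at chr19:41675355-41686229, stood at 26.1, 39.0 and 68.8 FPKM in DK females and 0.0596, 0.380 and 1.65 in DK males (lowest, median and highest). Every female lay above every male, and the log2 difference was -5.37 (SE 0.27, adjusted p = 1.63e-16). Sds, the serine dehydratase at chr12:41620393-41627741, stood at 35.3, 103 and 269.7 FPKM in females and 1.81, 2.29 and 3.12 in males, a log2 difference of -5.21 (SE 0.42, adjusted p = 4.81e-11). In the 300s alone the differences were -4.82 for Tat and -5.24 for Sds.

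Rbp4, the plasma carrier of retinol at chr1:256806472-256813711, stood at 117, 523 and 871 FPKM in females and 4.37, 8.01 and 53.5 in males, a log2 difference of -5.08 (SE 0.60, adjusted p = 9.61e-08). The sexes did not overlap, but female replicate 1, at 117 FPKM, was apart from the other females, and males 5 and 6, at 47.9 and 53.5, were apart from the other males. With the series covariate the difference was -3.37 (adjusted p = 0.00202), and in the 300s alone -3.0 (adjusted p = 0.0845). Of 7 tested liver transcripts, 5 were higher in females and 1, Cyp2c11, in males. The fibrinogen chains Fga and Fgb stood at 35.62 to 138.7 and 15.38 to 113.5 FPKM in females, and at 10.46 to 71.34 and 3.758 to 32.91 in males. Cps1, the first enzyme of the urea cycle, was at 0.2936 to 4.307 FPKM in females and 0.01088 to 0.04589 in males, without overlap. The same held for Ttr of transthyretin, at 1.105 to 6.48 and 0 to 0.09299 FPKM, while Apoh ranged over 0.6284 to 5.993 and 0.2076 to 1.285. Ahsg was at 0 in every DK female, and Serpina1 and Apoa1 stayed under 1 FPKM in all 12 libraries. Tat, Sds and Rbp4 are themselves abundant in liver, and the part of liver transcripts in them was not tested.

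Adh6, an alcohol dehydrogenase at chr2:243550627-243687857, was high in both sexes, at 442, 598 and 966 FPKM in females and 47.4, 66.2 and 89.2 in males. No female overlapped a male, with a log2 difference of -3.22 (SE 0.20, adjusted p = 3.93e-14). Slc22a13, a transporter of urate and nicotinate, averaged 9.53 ± 5.97 FPKM in females and 0.617 ± 0.620 in males, a difference of -3.08. Akr1b7, an aldo-keto reductase, had 3 reads over the 6 DK males and 582 over the females, a ratio of 191 (95% exact interval 65.2 to 931, counting error only). Hif3a, an alpha subunit of the hypoxia-inducible factors, averaged 5.87 ± 1.16 FPKM in females and 0.374 ± 0.190 in males, a difference of -2.87. The rest of the 12 were Spink8, a protease inhibitor, at -3.20, the connexin Gjb5 at -3.09, Armc3 at -2.92, Ddit4l2 at -2.87 and the stearoyl-CoA desaturase Scd2 at -2.73. All 12 separated the sexes and were called with the series covariate, and 10 were called in the 300s alone, all but Rbp4 and Ddit4l2 (adjusted p = 0.0749).

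The question whether the diet changes the sex difference was put as a test of the difference of differences. The sex difference on DK differed from that on NK for 1384 genes (10%), of which 673 moved toward males (4.87%) and 711 toward females (5.14%). Against HK it differed for 755 genes (5.46%), 336 toward males (2.43%) and 419 toward females (3.03%), a balance that turned with library sums to 756 and 283. Both tests use the same 12 DK libraries. Of the 304 genes over 2-fold higher in males, 131 differed from NK, with the gap wider on DK in 128, and of the 274 higher in females 136 differed, with the gap wider in 123. These genes were chosen for a large difference on DK, and that choice favours a wider gap there. The counts among them carry no test. With the series covariate only 56 genes differed from NK and 338 from HK, and in the 300s alone 31 and 37. Of the NK females, 4 of 6 are numbered in the 200s as well. Among the genes named here, 53 of 61 interactions against NK and 24 of 48 against HK were lost with the covariate. The 8 kept against NK were Tat, Akr1b7, Hif3a, Oacyl, Fsd1l, Sult1a1, Nkx1-2 and Srebf1. Every other interaction with NK given below as called for a named gene was lost with the covariate. In a fit to whole reads (voom) without the covariate, 6 of the 61 against NK and 8 of the 48 against HK were lost, Tat against NK among them.

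One set of genes had a large sex difference on all 3 diets. Dhrs7l1 differed by 6.99 on DK, 6.66 on NK and 7.08 on HK. Slco1a1 differed by 5.96, 5.68 and 6.25, and Slc22a22 by 4.85, 5.20 and 5.43. The values of Slco1a1 depend on the 0.5 added on each diet, so their likeness does not show that the ratios were alike. Its reads over the group were 1, 16 and 12 in females on DK, NK and HK, and 7519, 7037 and 11481 in males. Adh6 differed by -3.22, -3.83 and -3.82. For none of these 4 genes did the difference on DK pass the test against NK (adjusted p = 0.713, 0.799, 0.621 and 0.176) or against HK (adjusted p = 0.953, 0.854, 0.444 and 0.249), which does not show that the differences are equal. Among the 12 leaders for males, 11 were called in the same direction on NK and 12 on HK, the exception being Rdh16 on NK at 0.79 (adjusted p = 0.0566).

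In a second set the gap between the sexes was wider on DK. Tat differed by -1.48 on NK and -1.06 on HK, against -5.37 on DK, an interaction of -3.89 against NK (SE 0.38, adjusted p = 1.33e-07) and -4.31 against HK (adjusted p = 2.14e-08). The value of Tat against NK depends on the 0.5 added, since NK males ranged over 0 to 0.0551 FPKM and NK females over 0.450 to 1.62: in a fit to whole reads (voom), where ratios are compared, it was -1.03 (adjusted p = 0.67). Sds had interactions of -3.88 and -3.27 (adjusted p = 4.66e-05 and 0.00074). Rbp4 averaged 7.32 ± 12 FPKM in NK females and 2.72 ± 1.25 in NK males, where the sexes were not called apart (adjusted p = 0.598), and its interaction was -4.57 (adjusted p = 0.000527). Scd2 and Hif3a had interactions of -2.29 and -2.35 against NK (adjusted p = 3.43e-05 and 1.33e-07). With the series covariate the interactions of Sds, Rbp4 and Scd2 with NK were -2.91, -1.49 and -1.83 and not called (adjusted p = 0.216, 0.748 and 0.164). Those of Tat and Hif3a were still called on the log2(FPKM + 0.5) scale. Of the 12 leaders for females, 10 had an interaction with NK, 8 of them (with Tat) wider on DK on this scale and 2 (Akr1b7 and Armc3) narrower. These leaders were chosen for their difference on DK, which favours a wider gap there, so the count carries no test.

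In 4 genes whose gap widened toward males, the female level on DK lay below that on NK (log2 -2.77 for Hao2, -2.86 for Slc16a14, -2.53 for Hnmt and -3.38 for Gatm, adjusted p = 2.35e-12, 4.18e-10, 1.25e-05 and 9.55e-09). Hao2, a peroxisomal hydroxyacid oxidase, stood at 253, 338 and 448 FPKM in DK females and 1166, 2006 and 2584 in DK males (lowest, median and highest), against means of 2430.0 ± 736 and 1996 ± 278 on NK. Its log2 difference was 2.37 on DK and -0.24 on NK, an interaction of 2.61 (adjusted p = 2.01e-07). Slc16a14, of the monocarboxylate transporter family, averaged 12.5 ± 4.69 FPKM in DK females and 67.7 ± 22.9 in DK males, with 90.5 ± 24.9 and 62.5 ± 19.6 on NK and an interaction of 2.95 (adjusted p = 2.69e-06). Hnmt, which methylates histamine, averaged 11.7 ± 6.45 and 68.7 ± 33.4 FPKM on DK and 63.4 ± 16.2 and 58.8 ± 34.3 on NK, with an interaction of 2.83 (adjusted p = 0.00152). Gatm, which makes the precursor of creatine, averaged 136 ± 73.0 and 876 ± 416 FPKM on DK and 1341 ± 407 and 1271 ± 304 on NK. Its interaction was 2.68 (adjusted p = 0.00068). With the series covariate the interactions of Hao2, Slc16a14, Hnmt and Gatm with NK were 1.68, 1.94, 2.45 and 1.84. They were then not called (adjusted p = 0.0509, 0.136, 0.36 and 0.451). Rup2, a urinary protein, had no read in any DK female and 206 over the DK males, so it was at least 71.5-fold higher in males, taking 3 reads over the group as the floor.

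For another set the gap narrowed on DK. Akr1b7 averaged 57.1 ± 35.7 FPKM in NK females and 4.42 ± 2.85 in DK females, and males were near 0 on both, so the interaction was 3.57 (SE 0.56, adjusted p = 5.91e-05) against NK and 3.90 (adjusted p = 5.53e-05) against HK. Nkx1-2, a homeobox factor, differed by -3.51 on NK and -0.72 on DK, an interaction of 2.79 (adjusted p = 9.02e-07). Its difference on DK was not called with the series covariate (-0.73, adjusted p = 0.127) or in a fit of the DK libraries alone (adjusted p = 0.0908). Oacyl, an acyltransferase-like gene, averaged 11.7 ± 4.74 FPKM in NK females and 0.993 ± 0.308 in NK males, and 0.115 ± 0.0447 and 0.460 ± 0.769 on DK, where the sexes overlapped and were not called apart (adjusted p = 0.337). Fsd1l was alike, with interactions of 2.81 for Fsd1l and 3.37 for Oacyl (adjusted p = 3.43e-05 and 2.69e-06). Male values of Oacyl on DK ran from 0.0380 to 2.01 FPKM, with replicate 1 at the top and the other 5 at or below 0.356.

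A few genes turned round between the diets. Gstm1, a glutathione transferase, was higher in females on DK (log2 difference -2.14, adjusted p = 5.38e-06) and higher in males on NK by 1.54 (adjusted p = 0.000845), an interaction of -3.68 (adjusted p = 2.51e-06). Hmox1, the inducible heme oxygenase, was at -2.35 on DK and 2.06 on NK (adjusted p = 0.011 and 0.0378), and on DK it had no call with the series covariate (-2.09, adjusted p = 0.163). NK males spread over 21.4 to 439 FPKM and NK females over 9.49 to 29.2. Its DK females ranged over 11.3 to 253 FPKM and overlapped the males at 9.41 to 12.8. The bile salt pump Abcb11 averaged 55.5 ± 29.9 FPKM in DK females and 10.1 ± 8.01 in DK males, the sulfotransferase Sult1a1 189.9 ± 71.1 and 30.1 ± 13.5, and neither was called on NK (adjusted p = 0.723 and 0.728) with interactions of -2.84 and -2.80. The neighbouring claudins Cldn22 and Cldn24 had interactions of -2.35 and -2.90. They lie next to each other on chromosome 16 and, with the strand of the library not stated, reads of the pair may not be told apart.

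**Figure D3:**
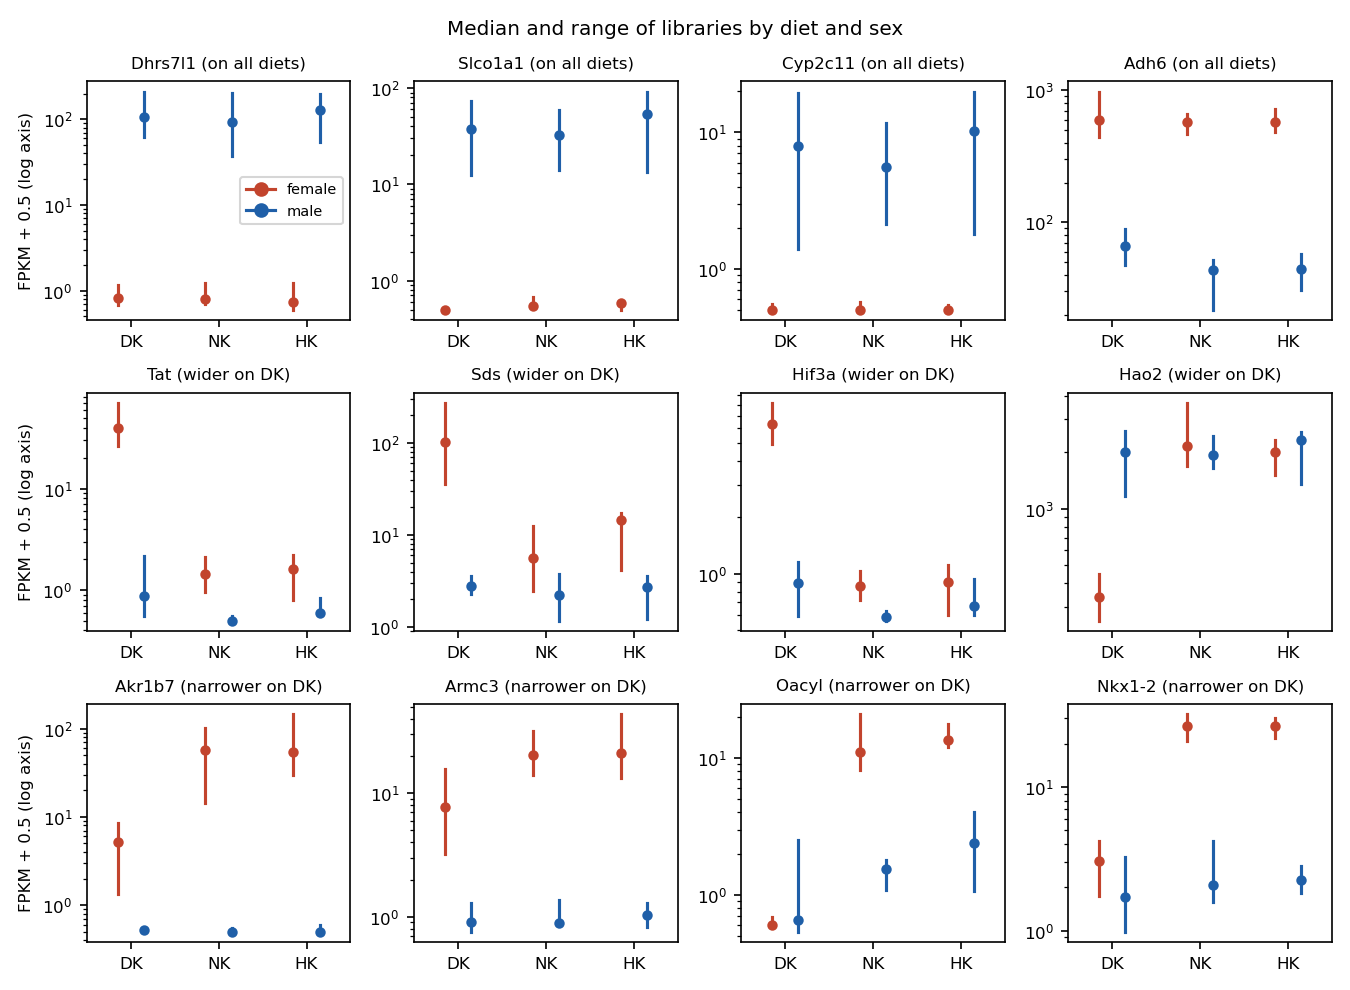
Median (point) and range (line) of FPKM + 0.5 on a log axis over the libraries of each sex and diet, for 4 genes with a difference on all diets (top row), 4 with a wider difference on DK (middle row) and 4 with a narrower one (bottom row). The female median of Tat, Sds and Hif3a is highest and that of Hao2 lowest on DK, while Akr1b7, Oacyl and Nkx1-2 are high in females on NK and HK. The wider gap of Tat on DK than on NK depends on the 0.5 added.

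The organic anion and cation transporters, which move drugs, urate and metabolites across the proximal tubule, split between the sexes. Of 35 tested members, 11 were higher in males and 8 in females, and 16 were not called, with a median log2 difference of 0.07 beside 0.001 over all genes, the value against which the medians of the other lists stand as well. Next to Slco1a1, Slc22a22 and Slc51b, the cation transporter Slc22a2 stood at 47.7, 59.0 and 92.4 FPKM in females and 84.7, 147 and 239 in males, a log2 difference of 1.17 (SE 0.25, adjusted p = 0.000387). The highest female lay above the lowest male, and with the series covariate Slc22a2 was no longer called (0.81, adjusted p = 0.099). Slc22a7, an anion transporter of the late proximal tubule, was higher in females, at 12.7, 29.3 and 47.1 FPKM against 3.12, 4.56 and 6.82 in males, a difference of -2.37 that was narrower than on NK at -4.17 (interaction adjusted p = 0.0214). The main anion exchangers of the early tubule, Slc22a6 and Slc22a8, did not pass the test, at 0.06 (adjusted p = 0.811) and -0.35 (adjusted p = 0.184).

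Enzymes of drug and steroid oxidation were more often higher in females. Of 30 cytochrome P450 members, 17 were higher in females and 7 in males, with a median of -0.62. On NK it was 10 and 10, and 10 members had an interaction, all toward females. Cyp2e1, which oxidises ethanol and ketones, stood at 685, 1102 and 1445 FPKM in females and 132, 244 and 324 in males, without overlap, a log2 difference of -2.13 (SE 0.22, adjusted p = 6.48e-09) and an interaction with NK of -1.41 (adjusted p = 0.00286). Cyp4b1, a fatty acid and xenobiotic hydroxylase, averaged 84.4 ± 60.9 FPKM in females and 11.1 ± 2.69 in males, a difference of -2.63. Cyp4a2, which makes the vasoactive fatty acid 20-HETE, has 2 entries under that symbol on chromosome 5. At the first (chr5:134196912-134207863) the sexes were not called apart on DK, at 0.27 (adjusted p = 0.175), while males were higher on NK by 1.78 (interaction -1.51, adjusted p = 1.94e-05). At the second (chr5:134469270-134484839) the difference was -0.95 on DK (adjusted p = 8.54e-05) and -1.01 on NK. Such paralogs can share reads, so their split is uncertain.

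Conjugating enzymes, which couple glutathione, sulfate or glucuronic acid to their substrates, were higher in females in 19 of 34 cases and higher in males in 2, with a median of -0.84. On NK the counts were 11 and 6, and on DK with the series covariate 17 and 0. Gsta3, a glutathione transferase, stood at 56.2, 114 and 132 FPKM in females and 8.38, 14.2 and 31.8 in males, without overlap, a log2 difference of -2.66 (SE 0.26, adjusted p = 2.73e-09). Sult1a1 differed by -2.65 and Gstm1 by -2.14. Glutathione transferases of 1 class are close paralogs, so values of single members are less certain than the direction of the group.

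Of 16 tested receptors and mediators of sex and growth hormone signals, 5 were higher in males and 3 in females. With library sums it was 6 and 1, and with the series covariate 2 and 1. Esr1, the estrogen receptor alpha, stood at 0.376, 0.941 and 1.14 FPKM in DK females and 2.58, 4.47 and 9.72 in DK males, without overlap, a log2 difference of 1.92 (SE 0.24, adjusted p = 2.41e-07). It was also higher in males on NK, at 1.04, and on HK, at 1.32. Prlr, the prolactin receptor, averaged 5.31 ± 0.651 FPKM in females and 19.8 ± 9.94 in males, a difference of 1.65, with 1.84 on NK. Igf1, the growth factor that growth hormone induces, was higher in females, at 11.6 ± 4.40 FPKM against 3.29 ± 0.750, a difference of -1.60 on DK and -1.71 on NK. Ghr, the growth hormone receptor, was not called apart (-0.02, adjusted p = 0.919). The androgen receptor is X-linked and lies outside the genes compared.

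Enzymes that make or clear steroid and thyroid hormones were higher in females in 10 of 20 cases and higher in males in 3. Hsd17b2, which inactivates estradiol and testosterone, averaged 42.7 ± 13.6 FPKM in females and 15.5 ± 5.28 in males, a log2 difference of -1.43 (SE 0.24, adjusted p = 2.24e-05). Ugt2b35, a glucuronosyltransferase, averaged 338 ± 183 and 93.8 ± 19.9 FPKM, a difference of -1.70. Dio1, which activates thyroxine, went the other way, at 12.8, 23.9 and 35.7 FPKM in females and 29.0, 151 and 267 in males, a difference of 2.26 with 1 male (replicate 5, at 29.0) inside the female range. On NK Dio1 was at -0.40 (adjusted p = 0.436), and the interaction was 2.65 (adjusted p = 0.00032).

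Genes of sodium and chloride transport were called on DK at 11 of 32, 9 higher in females and 2 in males, a share close to that of all genes. With values scaled to library sums, 6 were higher in females and 5 in males. Scnn1a, the alpha subunit of the epithelial sodium channel that aldosterone induces, stood at 34.3, 45.7 and 61.3 FPKM in females and 15.9, 20.2 and 26.2 in males, without overlap, a log2 difference of -1.13 (SE 0.15, adjusted p = 8.35e-07). The 2 other subunits did not follow: Scnn1b was not called (-0.14, adjusted p = 0.533), and Scnn1g was higher in males by 0.51 (adjusted p = 0.0177), with overlap and without a call under the series covariate (0.41, adjusted p = 0.249). Scnn1g was higher in females on NK, at -0.47, and its interaction was 0.98 (adjusted p = 0.00644). The cotransporters Slc12a1 of the thick ascending limb and Slc12a3 of the distal convoluted tubule were not called on DK, at -0.53 (adjusted p = 0.0903) and -0.10 (adjusted p = 0.742). Slc9a3, the proximal sodium-proton exchanger, was at 0.00 on DK and higher in NK females (log2 difference -0.78) (interaction adjusted p = 0.0495). Wnk4, a kinase that controls these cotransporters, was higher in females (log2 difference -0.53, adjusted p = 0.00132), which with the series covariate was -0.41 and not called (adjusted p = 0.107).

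Potassium transport genes were called at 12 of 17, with 6 in each direction. Kcnj1, the ROMK secretory channel, averaged 101 ± 27.1 FPKM in females and 70.3 ± 15.7 in males, a difference of -0.51 (adjusted p = 0.012). Kcnj10, the basolateral channel of the distal convoluted tubule that senses plasma potassium, was higher in males, at 2.08, 5.35 and 7.15 FPKM in females and 5.17, 8.09 and 10.8 in males, a difference of 0.78 (adjusted p = 0.0161), and its partner Kcnj16 was not called (-0.25, adjusted p = 0.185). Kcne1, a channel subunit, was higher in males by 1.60 on DK (adjusted p = 7.57e-05) and at -0.06 on NK (interaction adjusted p = 0.00798). Under the series covariate Kcnj1 and Kcnj10 were at -0.44 and 0.63 and not called (adjusted p = 0.182 and 0.241). Kcnj1 was not called with library sums or quantile normalization either, and Kcnj10 also lost its call without female replicate 3 (adjusted p = 0.0667).

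Of 9 tested members of the angiotensin system, 3 were called, 1 higher in males and 2 in females. This balance depends on the scaling, since it was 6 and 2 with library sums and 4 and 2 with quantile normalization. Agt, the precursor angiotensinogen, stood at 1.28, 5.52 and 7.44 FPKM in DK females and 13.3, 23.1 and 47.8 in DK males, without overlap, a log2 difference of 2.39 (SE 0.41, adjusted p = 2.81e-05) and 2.37 on NK. Ace, the converting enzyme, was higher in females, at 6.14, 7.12 and 11.9 FPKM against 1.42, 2.02 and 2.33 in males, a difference of -1.74 (SE 0.18, adjusted p = 4.99e-09). On NK Ace was at -0.41, and the interaction was -1.32 (adjusted p = 0.00056). The receptor Agtr1a was not called (0.20, adjusted p = 0.135).

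**Figure D4:**
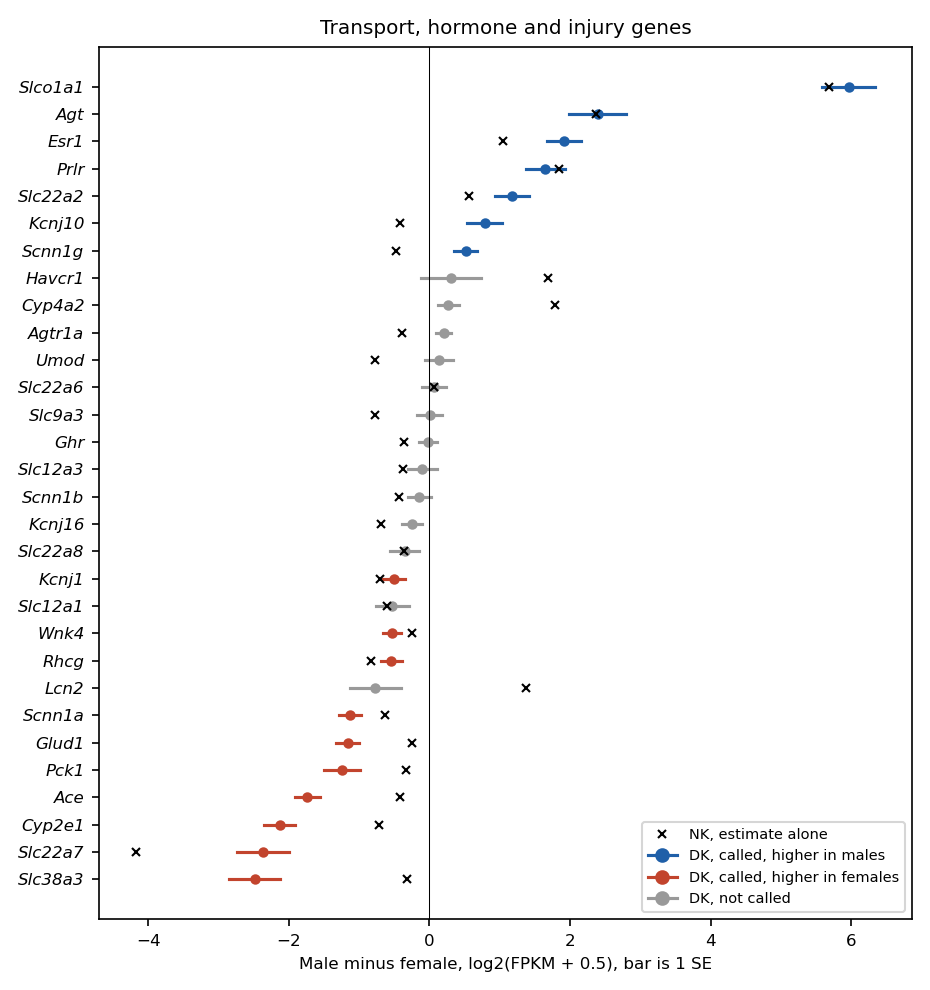
Male minus female difference of log2(FPKM + 0.5) on DK with 1 SE (points and lines) and on NK (crosses) for transport, hormone and injury genes. Slco1a1 and Agt lie at about the same place on both diets, while Slc38a3, Cyp2e1 and Lcn2 lie far to the left of their NK crosses.

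The ammonia and acid-base genes, by which the proximal tubule turns glutamine into ammonium and glucose, were higher in females in 13 of 25 cases and higher in males in 3, with a median of -0.41. The glutamine transporter Slc38a3 stood at 412, 943 and 1630.0 FPKM in DK females and 91.6, 140.4 and 302 in DK males, without overlap, a log2 difference of -2.49 (SE 0.37, adjusted p = 3.65e-06). Pck1, the carboxykinase of gluconeogenesis, stood at 5648, 8486 and 12550.0 FPKM in females and 1958, 3699 and 4852 in males, without overlap, a difference of -1.24 (SE 0.25, adjusted p = 0.00026). Glud1, which frees ammonium from glutamate, and the alanine aminotransferase Gpt differed by -1.17 and -2.43. On NK the differences were -0.32 for Slc38a3, -0.34 for Pck1, -0.24 for Glud1 and -0.84 for Gpt, and the interactions passed for Slc38a3, Glud1 and Gpt (adjusted p = 0.00588, 0.00657 and 0.000362) and not for Pck1 (adjusted p = 0.103). In males, replicates 5 and 6 held the 2 highest values of Slc38a3 and Pck1. On DK Pck1 missed the threshold with the series covariate (-0.98, adjusted p = 0.0543). The interactions of Slc38a3, Glud1 and Gpt with NK were also lost with it (-0.96, -0.60 and -0.93, adjusted p = 0.761, 0.62 and 0.504). Rhcg, the ammonia channel of the collecting duct, was higher in females (log2 difference -0.54, adjusted p = 0.00732), without a call under that covariate (-0.52, adjusted p = 0.108) or with quantile normalization. Of the 18 tested markers of intercalated cells, the acid-secreting cells that express Rhcg, 4 were called, all higher in females, and 2 with library sums, quantile normalization or the series covariate. On NK 12 were called, all higher in females, and the interaction with NK was called for 0 of 18 by limma and by voom, with 5 at an unadjusted p under 0.05 in each.

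Markers of lymphocytes and, less uniformly, of myeloid cells were higher in males. In bulk tissue, fewer cells of a type and less RNA per cell cannot be told apart. Of 18 tested lymphocyte markers, 16 were higher in males and none in females (median 0.84). All 25 listed markers, tested or not, summed to 73.51 to 101.6 FPKM in DK females and 148.1 to 174.2 in DK males, without overlap. Ptprc, the CD45 antigen of all leukocytes, stood at 1.63, 2.5 and 3.95 FPKM in females and 5.19, 6.66 and 7.55 in males, a log2 difference of 1.19 (SE 0.15, adjusted p = 3.51e-07). The T cell receptor chains Cd3g and Cd3e differed by 1.35 and 1.15 and did not overlap either. On NK 5 of the 18 were higher in males, and on DK with the series covariate 11. The sex difference was greater on DK than on NK for 3 of the 18 and smaller for 1, and the others had no called interaction. Macrophage and myeloid markers were higher in males in 13 of 25 tested cases and in females in 1. All 26 listed summed to 646 to 1072 FPKM in females and 728.6 to 1082 in males, which overlap. On NK 17 were higher in males, with 3 interactions toward males and 4 toward females. Fcgr3a, an antibody receptor of these cells, averaged 3.42 ± 1.54 FPKM in females and 7.80 ± 1.13 in males, a difference of 1.18. The chemokine Ccl2 differed by 1.66.

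Interferon-response genes were higher in males in 25 of 30 cases and higher in females in 1, with a median of 0.66, beside 6 and 0 on NK and 3 and 0 on HK. The sex difference itself was greater on DK for 13 of the 30 against NK and for 12 against HK, and smaller for none. Mx1, an antiviral GTPase, stood at 0.448, 0.915 and 1.48 FPKM in females and 2.60, 5.28 and 6.08 in males, without overlap, a log2 difference of 1.84 (SE 0.21, adjusted p = 7.31e-08) and an interaction with NK of 1.56 (adjusted p = 0.000798). Its neighbour Mx2 and the guanylate-binding protein Gbp2 differed by 1.63 and 1.61, with interactions of 1.26 and 0.93 (adjusted p = 0.00437 and 0.00132). In the 300s alone the differences of Mx1, Mx2 and Gbp2 on DK were 1.53, 1.37 and 1.34. With the series covariate their interactions with NK were 1.54, 1.31 and 0.75 and not called (adjusted p = 0.213, 0.305 and 0.401). On DK, 18 of the 30 genes were higher in males with that covariate. The lymphocyte markers above moved with these genes, and their part was not tested.

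Matrix and fibrosis genes were higher in males in 21 of 31 cases and higher in females in 2, with a median of 0.70, and on NK in 23 and 0. Col1a1, the main fibrillar collagen chain, stood at 2.92, 3.26 and 17.0 FPKM in females and 17.9, 22.1 and 37.1 in males, a log2 difference of 2.32 (SE 0.30, adjusted p = 3.51e-07). Female replicate 1, at 17.0 FPKM, was far above the other 5 females, which lay at 3.791 or below, and just under the lowest male. Col3a1 was higher in males by 1.96, with the same female library at 48.7 FPKM inside the male range, and Col6a3 by 2.15, with an interaction against NK of 1.49 (adjusted p = 0.00123). Smooth muscle and mesangial markers were higher in males in 6 of 13 cases, among them Rgs5 of pericytes at 1.31, and higher in females in 1. Proliferation genes were higher in males in 20 of 25 cases and higher in females in 1 (median 0.75), against 19 and 0 on NK. Top2a and Rrm2, both needed for DNA replication, differed by 1.40 and 1.25.

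Markers of the proximal tubule were called more often than the 34.4% of all genes, at 47.37% for S1 and S2 and 63.16% for S3, in both directions. Those of the thick ascending limb, distal convoluted tubule, principal cells, podocytes and endothelium were called at 20% to 30.77%. Of the proximal tubule markers, 4 of 19 for the S1 and S2 segments were higher in males and 5 in females (8 and 3 with library sums), and for the S3 segment it was 5 and 7 of 19. The thick ascending limb had 1 higher in males and 3 in females of 13 (2 and 1 with library sums), the distal convoluted tubule 0 and 3 of 12, and principal cells 2 and 2 of 14. Podocytes had 1 and 2 of 15 (4 and 0 with library sums), endothelium 2 and 2 of 13, and the renal medulla 1 and 2 of 8. The 12 medulla markers in the deposited table, tested or not, summed to 151 to 299.2 FPKM in DK females and 109.3 to 177.6 in DK males. This was well below the 20 proximal S1 and S2 markers, at 3726 to 5723 and 4767 to 5851. Blood (3 tested) and adipose (6 tested) markers had no call, the single adrenal marker tested was higher in females, and none of the 5 tested kallikreins was called. Antigen presentation had 8 higher in males and 0 in females of 22, complement and plasma proteins 7 and 5 of 23, and immediate early genes 2 and 1 of 17.

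Genes of the defence against oxidants were higher in females in 16 of 25 cases and higher in males in 1, with a median of -0.43, beside 8 and 1 on NK, with 5 interactions toward females and 1 toward males. Nqo1, a quinone reductase, stood at 8.79, 15.2 and 19.4 FPKM in females and 2.27, 3.15 and 4.00 in males, without overlap, a log2 difference of -1.97 (SE 0.17, adjusted p = 1.31e-10) and an interaction with NK of -1.41 (adjusted p = 0.000157). The exception was Gclc, which starts glutathione synthesis, at 170.5 ± 67.8 FPKM in females and 584 ± 295 in males, a difference of 1.71 (adjusted p = 0.000615). With the series covariate 7 of the 25 were higher in females and 1 in males, and with quantile normalization 9 and 4.

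Among the metabolic lists, fatty acid oxidation had 10 members higher in females and 3 in males of 31, and nuclear genes of oxidative phosphorylation 11 and 1 of 28. Neither direction held under each scaling: with quantile normalization 7 members of fatty acid oxidation were higher in males and 5 in females, and 6 and 1 of oxidative phosphorylation. Cholesterol synthesis was split 7 and 7 of 21. Within it Dhcr7, the last enzyme of the pathway, averaged 59.0 ± 20.9 FPKM in females and 15.8 ± 4.29 in males, a log2 difference of -1.83 with an interaction against NK of -1.81 (adjusted p = 4.44e-05). Srebf1, a transcription factor of lipid synthesis, differed by -1.69, with an interaction of -1.97 (adjusted p = 7.13e-06).

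Tubular injury genes were called on DK at shares close to those of all genes, with 4 higher in males and 6 in females of 26 (5 and 2 with library sums, 4 and 0 with the series covariate), whereas on NK 17 were higher in males and 1 in females. The sex difference on DK was lower than on NK for 9 of the 26 and greater for 1. Lcn2, a protein of injured tubules, stood at 57.2, 118 and 286 FPKM in DK females and 35.2, 75.9 and 145 in DK males, with overlap and without a call (-0.77, adjusted p = 0.1), and was higher in males on NK by 1.37 (interaction -2.14, adjusted p = 0.00601). Havcr1, the marker KIM-1, was not called on DK (0.31, adjusted p = 0.619) and was higher in males on NK by 1.69. The stress cytokine Gdf15 was higher in DK females (log2 difference -1.19, adjusted p = 0.00469), which with the series covariate was -1.23 and not called (adjusted p = 0.0661). Sox9, a factor of repairing tubules, was higher in males on DK by 1.11 and on NK by 2.46, a smaller difference on DK (interaction -1.35, adjusted p = 0.00681). Umod, the protein of the thick ascending limb, was not called on DK (0.13, adjusted p = 0.636) and was higher in NK females (log2 difference -0.77).

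Of 18 clock genes, 7 were higher in males and 3 in females. Arntl, the activator of the clock, averaged 5.36 ± 1.39 FPKM in DK females and 1.83 ± 1.18 in DK males, a log2 difference of -1.43 (adjusted p = 7.04e-05), and was higher in males on NK by 0.90. Ciart, a repressor, was the reverse, at 1.48 on DK and -1.16 on NK. Of the 6 DK males, replicates 1 to 4 were at or below 1.18 FPKM for Arntl, and replicates 5 and 6 at 3.08 and 3.60, next to the lowest female at 3.81. Neither gene was called with the series covariate (-0.84 and 0.42, adjusted p = 0.0865 and 0.619), and 1 of the 18 was.

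**Figure D5:**
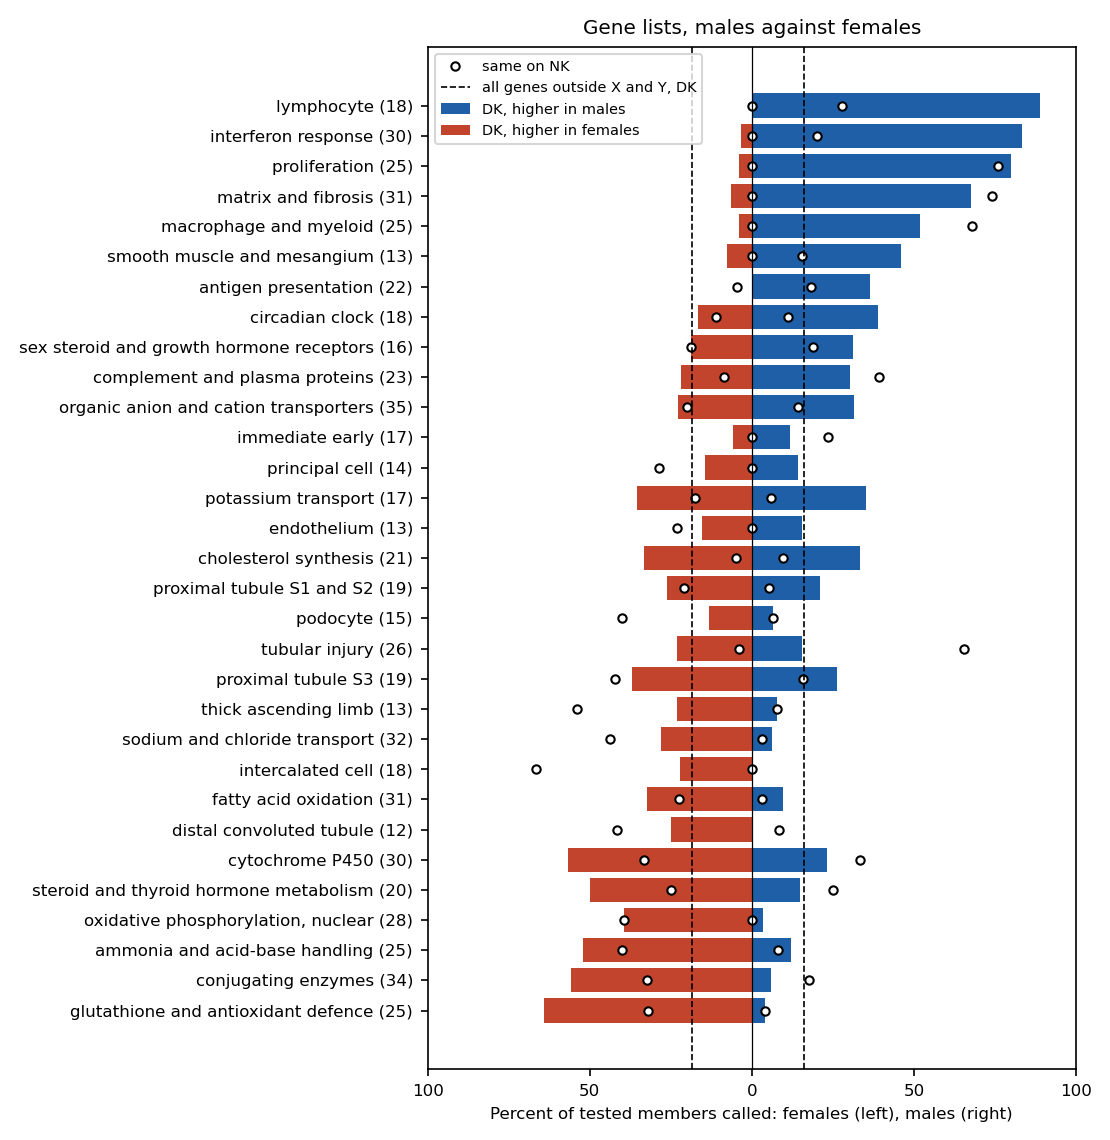
Percent of the tested members of each gene list (number in brackets) called higher in females (left bars) and in males (right bars) on DK, with circles for the same on NK and dashed lines at the DK shares of all genes, 18.3% and 16.1%. Lymphocyte and interferon lists reach far to the right on DK and less on NK (3 and 13 members had an interaction toward males), and the antioxidant, conjugating enzyme and P450 lists reach farthest to the left.

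Called genes were spread over all autosomes, from 29.9% of the tested genes on chromosome 14 to 39.5% on chromosome 7, and 8.82% of the 34 mitochondrial genes. Neighbours that were over 2-fold apart in the same direction included Mx1 and Mx2 on chromosome 11 and, in favour of females, Cldn22 and Cldn24 on chromosome 16. By type, 36.1% of 12750 protein-coding genes were called, 23.6% of 212 long intergenic RNAs and 4.67% of 214 small nucleolar RNAs, most of which lack the poly-A tail that the poly-T beads capture.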

How the data were processed

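RNA of rat kidney cortex was extracted with Trizol, selected with poly-T beads and sequenced, per the labels' protocols, which do not say whether libraries were directional. The authors deposited 1 table of FPKM for 32545 genes in 35 libraries. The submitters' processing notes name featureCounts 1.5.0-p3, StringTie 1.3.3b, HISAT2 2.0.5 and fastp, and the genome build is not stated. FPKM times gene length gave whole reads within 0.01 in 100% of values, so depth was recovered as 14.2 to 28.66 M reads per DK library. The scaling between libraries is that of the authors.

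The 14264 genes that reached 1 FPKM in 5 or more libraries were fitted as log2(FPKM + 0.5) with limma 3.58.1 (R 4.3.3, trend, 6 group means), with Benjamini-Hochberg adjustment over all of them. Males minus females, and its difference between diets, were tested. Adjusted p-values are limma's and two-sided. Fold changes on this scale understate low genes. Alternatives were other pseudocounts, filters, scalings, library weights, voom on recovered reads, a replicate block, the number series as covariate, the 300s alone and leaving out each library. The fit was tested on simulated counts. Among pairs of libraries of 1 DK group, the chi-square per gene was 12.05 to 91.57, so none were copies.

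Named genes are the 12 largest called differences in each direction among genes with a symbol whose mean reached 2 FPKM in the higher sex, the 6 largest interactions in each direction, up to 4 called members of each of 39 lists, and a panel of transport, hormone and injury genes. Members and lists were chosen with earlier results of these data known. Lists used 1 entry per symbol. Some genes that the rule names are not reported here.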

Additional observations from a re-analysis of the deposited data

Results flagged for a closer look

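Among 198 sets of 6 DK libraries examined (1 gene or library measure in 1 sex each), 14 held a library whose gap to the nearest other was too large a share of its group's range by Dixon's criterion at 95%, where chance gives about 1 in 20. Female replicate 1 stood apart in 7 of them. It was low in Rbp4, at 116.7 FPKM against 442.6 to 870.7 in the other 5, and in Cldn24, at 2.992 against 7.743 to 13.21. It was high in Col1a1, at 17.01 against 2.925 to 3.791, and in Col3a1, at 48.74 against 9.5 to 17.62. It was also high in Slc12a1, at 176.5 against 82.82 to 106.4, and in Ace, at 11.88 against 6.136 to 7.767. Its Slco1a1 value of 0.02844 FPKM is 1 read, as is the Cyp2c11 value of 0.04573 in female replicate 3, with the other females at 0. Female replicate 3 was low in Ghr, at 37.42 FPKM against 48.08 to 53.6, and female replicate 4 in Cd3g, at 0.7228 against 2.135 to 3.422. Male replicate 1 was high in Oacyl, at 2.008 against 0.03801 to 0.356. Male replicate 2 was high in Top2a, at 2.673 against 1.47 to 1.651, and in Rrm2, at 3.98 against 1.702 to 2.278, both genes of proliferation. Female replicate 5 held 28.66 M reads in genes, against 14.8 to 15.79 M in the other DK females.

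For 109 of 194 interactions examined in the genes named here, the sex difference on DK differed from that on another diet by limma's interaction test at an adjusted p under 0.05. Many of these genes were named for a large interaction or a large difference on DK, so the choice raises this count. Over all genes the shares were 10% against NK and 5.46% against HK. Each value listed next is the log2 sex difference on DK minus that on the other diet. Against NK the difference moved toward males for Tff3 2.07, Rdh16 2.45, Akr1b7 3.57, Armc3 1.5, Hnmt 2.83, Slc16a14 2.95, Oacyl 3.37, Fsd1l 2.81, Rup2 1.99, Nkx1-2 2.79, Dio1 2.65, Slc22a7 1.80, Gatm 2.68 and Scnn1g 0.98. More values toward males against NK were Slc9a3 0.78, Kcne1 1.66, Kcnj10 1.21, Agtr1a 0.60, Col1a1 1.38, Col6a3 1.49, Ptprc 0.70, Fcgr3a 1.10, Mx1 1.56, Mx2 1.26, Gbp2 0.93, Top2a 0.71, Hao2 2.61 and Gclc 2.22. More values toward males against NK were Ccl2 1.12, Umod 0.90, Ciart 2.64 and Rgs5 0.96. Against NK the difference moved toward females for Tat -3.89, Sds -3.88, Rbp4 -4.57, Spink8 -2.14, Gjb5 -1.85, Hif3a -2.35, Ddit4l2 -2.50, Scd2 -2.29, Gstm1 -3.68, Hmox1 -4.40, Cldn24 -2.90, Cldn22 -2.35, Abcb11 -2.84 and Sult1a1 -2.80. More values toward females against NK were Ugt2b35 -1.34, Cyp4b1 -1.52, Cyp2e1 -1.41, Cyp4a2 -1.51, Slc38a3 -2.17, Gpt -1.59, Glud1 -0.92, Ace -1.32, Dhcr7 -1.81, Srebf1 -1.97, Nqo1 -1.41, Sox9 -1.35, Gdf15 -1.97 and Lcn2 -2.14. More values toward females against NK were Arntl -2.33. Against HK the difference moved toward males for Rdh16 1.96, Akr1b7 3.90, Armc3 1.53, Hnmt 2.40, Slc16a14 2.54, Oacyl 3.08, Fsd1l 2.75, Rup2 2.63, Nkx1-2 2.83, Dio1 2.42, Slc22a7 1.94, Scnn1g 0.79, Kcne1 1.99 and Col1a1 1.72. More values toward males against HK were Col6a3 1.45, Col3a1 1.32, Mx1 1.26, Mx2 1.22, Gbp2 1.09, Top2a 0.92, Hao2 2.22, Gclc 1.92 and Ccl2 1.38. Against HK the difference moved toward females for Cyp2c13 -1.47, Tat -4.31, Sds -3.27, Rbp4 -5.86, Spink8 -2.05, Gjb5 -2.17, Hif3a -2.64, Ddit4l2 -1.98, Scd2 -2.27, Gstm1 -2.55, Cldn24 -2.38, Cldn22 -2.65, Abcb11 -2.73 and Sult1a1 -2.65. More values toward females against HK were Ugt2b35 -1.60, Cyp2e1 -2.0, Cyp4a2 -1.03, Slc38a3 -1.88, Gpt -1.41, Glud1 -1.0, Ace -1.19, Dhcr7 -1.36, Srebf1 -1.93, Nqo1 -1.32 and Gdf15 -1.76. When the number series was added to the fit, 53 of the 61 against NK and 24 of the 48 against HK were no longer called. With voom on recovered reads it was 6 of the 61 and 8 of the 48.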

How the results depend on the processing

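The count of genes called on DK (4758) lay between 4278 and 5637 under other pseudocounts, filters, scalings, weights per library and voom on recovered reads, and at 3285 in a fit of the 12 DK libraries alone. Leaving out 1 library gave 3959 (male replicate 1) to 5417 (female replicate 1) on DK, 1055 to 1733 for the interaction with NK and 579 to 1082 for that with HK. When the number series was added to the fit, the 3 counts were 2211, 56 and 338. In the 300s alone, with fewer samples and 1 DK male, they were 406, 31 and 37. Weights per library gave 2156 for NK and 1449 for HK, and removing both female libraries of low weight, chosen after seeing the data, gave 1151 for HK; the cause was not tested. With library sums, 802 interactions with NK moved toward males and 546 toward females, and 756 and 283 with HK. A replicate block gave 4593, 1270 and 639 and changed no call of a named gene on DK. Same-numbered males and females correlated at -0.169 to 0.213, and 1 of 6 was closest to its own number. This gave no sign that the numbers pair the samples, but 6 pairs cannot exclude it. Of 97 named genes, 12 lost their call on DK with the covariate and 47 in the 300s alone, and none reversed on DK under the alternatives run. Some of the 97, such as Ghr and Umod, were not called on DK in the main fit and had no call to lose. A reversal was counted only where at least 1 of the 2 fits compared called the gene. Without a call, genes such as Oacyl (0.38 to -0.19) and Havcr1 (0.31 to -0.10) changed sign in the 300s alone. Calls on DK of Kcnj10, Nkx1-2 and Scnn1g were lost with 1 library left out (adjusted p up to 0.0667, 0.0637 and 0.0646). Voom, with median-ratio in place of TMM scaling of library sizes (chosen after seeing the data), called 4709 genes on DK. The planned quasi-likelihood test on recovered reads is not reported. In simulated counts of 14264 genes the DK test found 67% of 1.5-fold and 92% of 2-fold changes, and the NK interaction test 26% and 79%. The changed genes were drawn from those with more reads, so these rates do not cover low genes. No number series and no library of low weight was simulated.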

Other observations

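Some neighbouring genes were over 2-fold apart in the same direction on DK. On chromosome 1, Kcnj11 and Abcc8, the pore and the sulfonylurea receptor of the ATP-sensitive potassium channel, were higher in males by 1.25 and 1.27 on the log2 scale. On chromosome 10 Ccl2 and Ccl7, chemokines for monocytes, were higher in males by 1.66 and 1.17. On chromosome 7 it was the interleukin 2 receptor chain Il2rb and the leukocyte GTPase Rac2, by 1.16 and 1.14. On chromosome 20 the complement genes C4b and C4a (1.56 and 1.08) and the collagens Col6a1 and Col6a2 (1.32 and 1.11) were higher in males. On chromosome 8, the small heat shock proteins Hspb2 and Cryab were higher in females, with log2 differences of -1.11 and -2.21. These genes were picked after their values were seen. Adjacent copies such as C4a and C4b can share reads, and overlapping neighbours cannot be told apart without strand.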
